A study of Homo sapiens with 6 samples.

Results

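The guanylate-binding proteins GBP1 to GBP5 were chosen by name, as 5 of the 58174 genes in the expression table. SiHa, an established line of human cervical squamous carcinoma cells, received either GV230-BRCA1 (OV-BRCA1 group) or the empty GV230 plasmid (NC group). Lipofectamine was the transfection reagent in both groups, and mRNA was sequenced 48 h later in 3 samples per group. The study asked which genes differ when BRCA1 is overexpressed in these cells. The values are FPKM, fragment counts per unit of transcript length and of sequencing depth, so levels can be compared between genes. Gene values are sums of the values of their transcripts. Estimated depth was 15.6, 16.1 and 13.6 M fragments in OV-BRCA1 replicates 1 to 3, against 15.6, 18.2 and 19.1 M in NC replicates 1 to 3. The share of mitochondrial genes in the summed FPKM was 14.8%, 17.2% and 16.3% in the OV-BRCA1 samples and 21.9%, 23.2% and 21.0% in the NC samples, so it differed with the group.

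Guanylate-binding proteins are large GTPases of the dynamin superfamily whose genes lie side by side in the genome and are induced by interferons. They assemble on the surface of intracellular bacteria and vacuoles, where they take part in the release of microbial products to inflammasomes. GBP1 can be farnesylated, GBP2 and GBP5 can be geranylgeranylated, and these lipid anchors attach the proteins to membranes, whereas GBP3 and GBP4 lack the prenylation motif.

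BRCA1 was examined first, as a check of the labels. Its FPKM was 35.7, 40.8 and 34.9 in OV-BRCA1 replicates 1 to 3, against 20.1, 14.9 and 21.7 in NC replicates 1 to 3. The lowest OV-BRCA1 sample lay above the highest NC sample, which 23.4% of the tested genes also showed. The log2 fold change of BRCA1 was 0.95 (limma, Benjamini-Hochberg adjusted p = 0.00373). That is below the log2 fold change of 1 in the criterion for differentially expressed genes (DEGs) given further on. Cell type markers were read next. A list of 12 markers was read for this carcinoma line. KRT17 was the most abundant, at 1033 ± 90.3 FPKM in the OV-BRCA1 group, against 1434 ± 8.67 FPKM in the NC group (SD, n = 3). KRT8, KRT18, SFN and CDKN2A were above 100 FPKM in all 6 samples. KRT18 (log2 fold change 0.39), EPCAM (1.12), KRT6A (0.84) and KRT8 (0.20) were higher in the OV-BRCA1 group and KRT17 was lower (-0.48), and KRT6A passed the filter through the OV-BRCA1 group alone. KRT8 lost its call in 4 of 6 fits that left out a sample, and the paper lists it among its downregulated genes. The basal markers KRT5, KRT14 and TP63 were below 1 FPKM in all 6 samples, and so were KRT19 and CDH1. These markers alone therefore do not show a squamous type. Of 9 leukocyte markers, PTPRC and TYROBP were listed at 0 in all samples, and 2 genes, CD68 and CD14, passed the filter on low values. The summed leukocyte list stood at 31.7, 34.2 and 37.4 FPKM in the OV-BRCA1 samples and at 24.7, 22.8 and 23.2 FPKM in the NC samples. Its most abundant gene was CD68 in the OV-BRCA1 samples and CD14 in the NC samples. CD68 was higher in the OV-BRCA1 group (26.3 ± 3.73 against 3.43 ± 0.717 FPKM; SD, n = 3) and CD14 lower (log2 fold change -1.22). CD68 overlaps other expressed genes on both strands, and the part of these markers in the GBP results was not tested. The endothelial list summed to at most 1.48 FPKM in any sample, with VWF and KDR at 0. The fibroblast list summed to 3.17 to 3.70 FPKM in the OV-BRCA1 samples and 6.15 to 6.73 FPKM in the NC samples, nearly all of it COL1A1, with LUM at 0.

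Promoter sequences of the GBP genes were compared because several members rose in the same samples. RefSeq (GRCh38.p14) promoters, 300 bases each, were matched for GBP1, GBP3, GBP4, GBP6 and GBP7. GBP2 and GBP5 were not matched. The core of the interferon-stimulated response element, GAAA followed by any 2 bases and GAAA, was searched on both strands and was present in 1255 of 35116 promoters (3.57%). The gamma-activated site, TTC followed by any 3 bases and GAA, which reads the same on both strands, was present in 2689 of them (7.66%). The 4 matches found are printed with 30 bases each, 5′ to 3′ on the strand of the gene, which is the minus strand for all 3 genes. Capitals mark the match, and the response element core appears as its reverse complement.
GBP1 response element core: aacgaagtacTTTCAGTTTCatattactct
GBP3 response element core: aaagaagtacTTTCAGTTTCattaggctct
GBP4 response element core: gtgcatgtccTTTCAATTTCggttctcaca
GBP3 gamma-activated site: actgagtcacTTCCTTGAAagaagtacttt
The GBP1 stretch lies at chr1:89065316-89065345, and its match spans positions -127 to -118 from the RefSeq start, which is counted as 0. GENCODE 29 places the start of GBP1 further upstream, so the same match spans positions 25 to 34 of the gene there. The GBP3 core is at chr1:89022845-89022874, positions 2 to 11 from the RefSeq start and 30 to 39 from that of GENCODE. The GBP3 gamma-activated site is at chr1:89022862-89022891, positions -15 to -7 and 13 to 21. The GBP4 stretch is at chr1:89198927-89198956, and its match spans positions -4 to 5 from the RefSeq start and -14 to -5 from the GENCODE start. GBP1 and GBP3 thus share the same 10 letters in the core. Their promoters aligned over 160 columns with 76.2% identity. GBP6 and GBP7 held neither motif in these windows. A match of letters does not show that a factor binds.

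GBP1, the farnesylated member, was the most abundant of the 5 genes. It stood at 59.1, 65.0 and 63.4 FPKM in OV-BRCA1 replicates 1 to 3, against 11.7, 10.8 and 11.4 FPKM in NC replicates 1 to 3. The groups did not overlap, and even the lowest OV-BRCA1 sample was 5.05-fold above the highest NC sample. The means were 62.5 ± 3.03 FPKM against 11.3 ± 0.436 FPKM (SD, n = 3), a 5.53-fold difference. The values rest on an estimated 1991 to 2364 fragments per OV-BRCA1 sample and 342 to 450 fragments per NC sample. In bulk RNA, more cells with the transcript and more transcript per cell cannot be told apart.
Groups were compared with limma's moderated test on log2(FPKM + 1) over the 16321 genes that reached 0.5 FPKM in 3 or more samples. A gene was a DEG when its Benjamini-Hochberg adjusted p was below 0.05 and its log2 fold change was beyond 1 in either direction. GBP1 was an upregulated DEG, with a log2 fold change of 2.37 (standard error 0.06, 95% confidence interval 2.22 to 2.51, limma, Benjamini-Hochberg adjusted p = 4.10e-06). It ranked 87 among the 16321 genes by log2 fold change. As background, 2.89% of the tested genes were upregulated DEGs and 1.1% were downregulated DEGs. The adjusted p alone was passed upward by 16.4% of the genes and downward by 18.9%. In 23.4% of the tested genes the lowest OV-BRCA1 sample lay above the highest NC sample, as it did for GBP1. An exact two-sided permutation test gave 0.1 for GBP1, which is the smallest p that 3 samples against 3 allow, and the same value for each of the other 4 members.

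GBP2, which can carry a geranylgeranyl anchor and is known as an inhibitor of the protease furin, was far less abundant. Its FPKM was 4.31, 4.49 and 4.21 in the OV-BRCA1 samples and 2.66, 2.44 and 2.96 in the NC samples. The groups did not overlap, but the difference was small, 4.33 ± 0.140 against 2.69 ± 0.265 FPKM (SD, n = 3) or 1.61-fold. The log2 fold change was 0.53 (standard error 0.09, 95% confidence interval 0.33 to 0.74, limma, Benjamini-Hochberg adjusted p = 0.00473), below the fold change of the DEG criterion. The protein-coding transcript GBP2-201, the most abundant over all 6 samples, did not share this rise (log2 fold change -0.21), whereas GBP2-203 did.

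GBP5, another furin inhibitor and also linked to the NLRP3 inflammasome, was close to the lower limit of detection in the NC group. It stood at 2.39, 2.50 and 2.03 FPKM in the OV-BRCA1 samples and at 0.103, 0.0129 and 0.101 FPKM in the NC samples. The NC values rest on an estimated 6.98, 1.10 and 6.52 fragments, against 126, 129 and 96.4 fragments in the OV-BRCA1 samples. These fragment numbers are rough, since 33.0% to 38.2% of low values per sample came within 0.1 of a whole number of fragments. GBP5 therefore passed the filter on low values through the OV-BRCA1 group alone, and a gene that enters in this way has to differ. Its log2 fold change was 1.62 (standard error 0.10, limma, Benjamini-Hochberg adjusted p = 0.000107), past the DEG criterion. Fitted without the filter, the adjusted p was 0.000681 (limma, Benjamini-Hochberg). Each gene is fitted on its own, so the log2 fold change stays at 1.62 there by construction. With a pseudocount of 0.1 in place of 1 it was 3.85, because a pseudocount of 1 compresses low values. The ratio of the means was 31.9, and its size depends on the few fragments of the NC group.

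GBP3, which lacks the prenylation motif, was the next most abundant member after GBP1. Its FPKM was 23.4, 21.3 and 27.2 in the OV-BRCA1 samples and 8.91, 9.38 and 8.90 in the NC samples. All 3 OV-BRCA1 samples were higher, and the means of 24.0 ± 2.99 and 9.06 ± 0.272 FPKM (SD, n = 3) differed 2.65-fold. GBP3 was an upregulated DEG with a log2 fold change of 1.31 (standard error 0.10, 95% confidence interval 1.08 to 1.54, limma, Benjamini-Hochberg adjusted p = 0.000226).

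GBP4, the other member without the motif, was the member that did not pass the filter, so 4 of the 5 genes were tested. It stood at 0.407, 0.569 and 0.591 FPKM in the OV-BRCA1 samples and at 0.0647, 0.0446 and 0.0804 FPKM in the NC samples. The groups did not overlap, with means of 0.522 ± 0.101 and 0.0632 ± 0.0180 FPKM (SD, n = 3). These values correspond to an estimated 38.9 to 56.1 and 4.96 to 9.42 fragments per sample. The difference of the means of log2(FPKM + 1) was 0.52. When all 33326 genes with a nonzero value were fitted without the filter, the adjusted p of GBP4 was 0.00486 (limma, Benjamini-Hochberg), where 7.28% of the genes passed upward. With a pseudocount of 0.1 the difference was 1.92, so its size is set largely by the pseudocount.

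**Figure D1:**
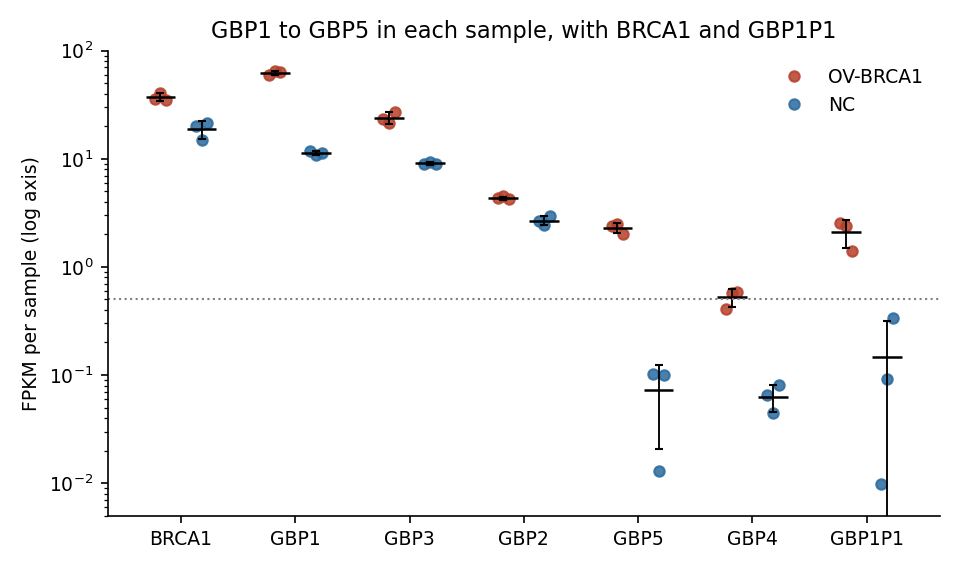
FPKM of BRCA1, GBP1 to GBP5 and the pseudogene GBP1P1 in each sample on a log axis, with the OV-BRCA1 group in red and the NC group in blue; points are single samples, black lines the mean and SD of 3 samples (an SD larger than its mean runs to the foot of the axis), and the dotted line marks 0.5 FPKM, the minimum of the filter. For GBP1 the OV-BRCA1 samples sit between 59.1 and 65.0 FPKM and the NC samples between 10.8 and 11.7 FPKM, and the NC samples of GBP4 and GBP5 lie below the dotted line.

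The order of levels was nearly the same in both groups. GBP1 was highest, followed by GBP3 and then by GBP2, in all 6 samples. GBP5 came next and GBP4 was lowest in 5 samples, and these neighbours changed places in NC sample 2. In the NC group the means of GBP5 (0.0722 ± 0.0514 FPKM) and GBP4 (0.0632 ± 0.0180 FPKM; SD, n = 3) differed by less than their spread. The means of GBP1 and GBP3 in the NC group were apart by more than their spread.

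The members did not rise in proportion. The summed FPKM of GBP1 to GBP5 was 89.7, 93.8 and 97.4 in the OV-BRCA1 samples and 23.4, 22.7 and 23.4 in the NC samples, 4.04-fold higher on average. GBP1 made up 65.9%, 69.2% and 65.1% of that sum in the OV-BRCA1 samples and 49.9%, 47.7% and 48.5% in the NC samples. GBP3 accounted for 25.6 ± 2.65% against 39.1 ± 1.89%, and GBP2 for 4.64 ± 0.274% against 11.6 ± 0.985% (SD, n = 3). GBP5 went from 0.309 ± 0.218% to 2.47 ± 0.338% (SD, n = 3). The sum was therefore more strongly made up of GBP1 in the OV-BRCA1 group.
Ratios between members in a sample do not depend on the scaling of that sample. The log2 ratio of GBP1 to GBP3 was 1.33, 1.61 and 1.22 in the OV-BRCA1 samples and 0.39, 0.21 and 0.35 in the NC samples. That of GBP1 to GBP2 was 3.78, 3.86 and 3.91 against 2.13, 2.15 and 1.94. Neither ratio overlapped between the groups. The log2 ratio of GBP2 to GBP3 was lower in the OV-BRCA1 group, at -2.44, -2.25 and -2.69 against -1.74, -1.94 and -1.59. The ratio of GBP1 to GBP4 overlapped, with log2 values of 6.74 to 7.18 against 7.14 to 7.93. The log2 ratio of GBP1 to GBP5 was lower in the OV-BRCA1 group without overlap, at 4.63, 4.70 and 4.97 against 6.83, 9.71 and 6.82, and rests on the low NC values of GBP5. Of the 10 pairs computed, the other 5 all include GBP4 or GBP5 and were also lower in the OV-BRCA1 group without overlap. They too rest on low NC values. The 10 pairs come from only 5 genes and are not independent. How many pairs of all genes separate in this way was not computed. With 3 samples against 3 no pair can go below a p of 0.1 in an exact permutation test.

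**Figure D2:**
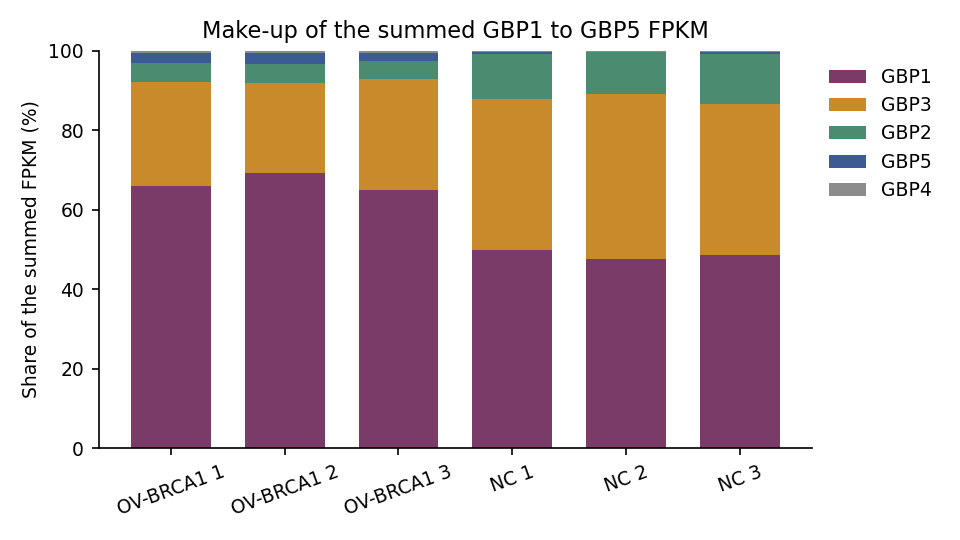
Share of each member in the summed FPKM of GBP1 to GBP5, in percent, with 1 bar per sample. GBP1 takes 65.1% to 69.2% of the bar in the OV-BRCA1 samples and 47.7% to 49.9% in the NC samples, and GBP2 and GBP3 take smaller shares in the OV-BRCA1 samples.

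A mitochondrial share that is smaller in the OV-BRCA1 samples can raise nuclear genes in FPKM. When samples were scaled by their nuclear protein-coding sum the log2 fold changes were 2.33 for GBP1, 0.50 for GBP2, 1.27 for GBP3 and 1.61 for GBP5, close to the unscaled values.

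The expression table divides the 5 genes over 31 transcripts, and all 31 lie at the position that GENCODE 29 gives. Transcript values were fitted across 50925 transcripts by the same test, where 1.46% met the DEG criterion upward. The adjusted p alone was passed upward by 2.85% and downward by 2.63% of the transcripts.
GBP1 was carried by its protein-coding transcript GBP1-201, at 43.9, 43.4 and 43.6 FPKM in the OV-BRCA1 samples and 5.94, 6.26 and 6.70 FPKM in the NC samples. This transcript made up 69.8% of the gene in the OV-BRCA1 group, against 55.8% in the NC group. Its log2 fold change was 2.61 (standard error 0.08, limma, Benjamini-Hochberg adjusted p = 0.000205). The other 7 GBP1 transcripts are annotated as processed transcripts without a reading frame, and the next most abundant, GBP1-208, had a mean of 6.89 ± 1.95 against 1.53 ± 0.306 FPKM (SD, n = 3).

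In GBP2 the rise was found in a transcript marked for decay and not in the protein-coding one, and the difference between these transcripts was not tested. The protein-coding GBP2-201 stood at 1.73, 1.41 and 1.71 FPKM in the OV-BRCA1 samples and at 2.25, 1.46 and 2.44 FPKM in the NC samples. These groups overlapped, and the log2 fold change was -0.21 (95% confidence interval -0.66 to 0.24, limma, Benjamini-Hochberg adjusted p = 0.564). GBP2-203, annotated as a target of nonsense-mediated decay, stood at 2.36, 2.48 and 2.03 FPKM in the OV-BRCA1 samples and at 0.302, 0.792 and 0.315 FPKM in the NC samples. Its log2 fold change was 1.18 (95% confidence interval 0.73 to 1.62, limma, Benjamini-Hochberg adjusted p = 0.0244). GBP2-203 made up 52.8% of the gene in the OV-BRCA1 group, against 17.5% in the NC group, whereas the share of GBP2-201 was 37.3% and 76.3%. The rise of the GBP2 sum was thus assigned to GBP2-203.
GBP2-203 spans chr1:89106132-89150456 and has 1542 exon bases found in no other GBP2 transcript. Of these, 921 lie at the 3′ end of the gene, in a stretch beyond the end of GBP2-201, and 213, 281 and 127 lie in 3 upstream exons within the span of GBP7. Which of these stretches held the fragments cannot be read from FPKM. GBP7 itself was listed at 0 in all 6 samples.

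GBP3 had a steady sum from unsteady parts. The protein-coding GBP3-202 stood at 4.57, 2.23 and 15.3 FPKM in the OV-BRCA1 samples and at 2.23, 1.66 and 3.71 FPKM in the NC samples. GBP3-203, which retains an intron, stood at 9.04, 14.4 and 5.04 FPKM and at 4.51, 2.85 and 2.46 FPKM. OV-BRCA1 sample 3 was highest for the first and lowest in its group for the second. Neither transcript passed the test, with Benjamini-Hochberg adjusted p = 0.440 and 0.141 (limma). Added together they gave 16.9 ± 3.40 against 5.81 ± 1.16 FPKM (SD, n = 3), without overlap. The gene-level rise of GBP3 is therefore firmer than its division over transcripts, and no GBP3 transcript met the DEG criterion.

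**Figure D3:**
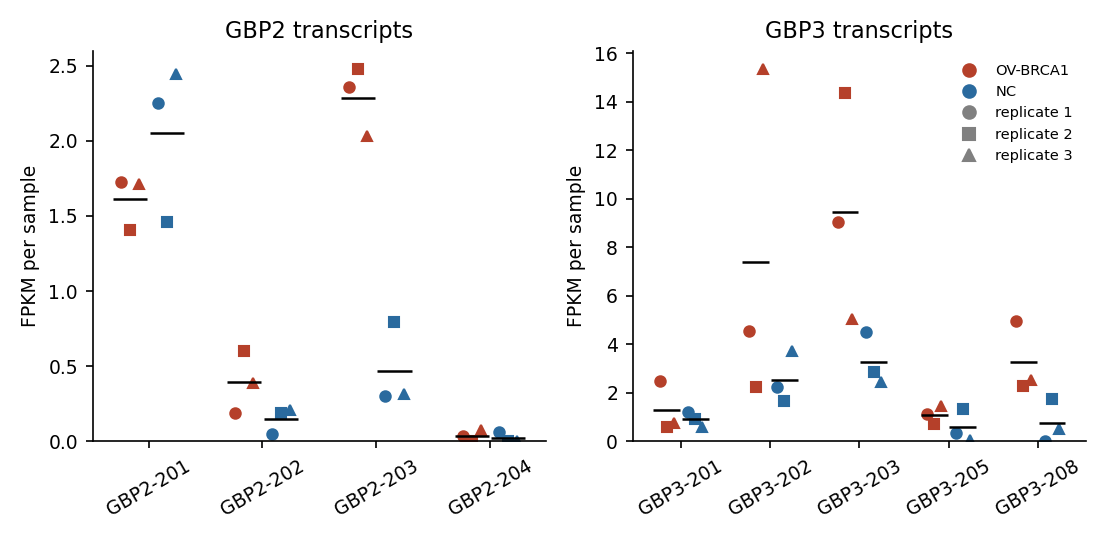
FPKM of the 4 GBP2 transcripts and of the 5 GBP3 transcripts that entered the test, with the OV-BRCA1 group in red, the NC group in blue, 1 marker shape per replicate number and a black line at the mean of 3 samples. In GBP2 the groups overlap for GBP2-201 and separate for GBP2-203 (2.03 to 2.48 against 0.302 to 0.792 FPKM), and in GBP3 the OV-BRCA1 samples of GBP3-202 and GBP3-203 scatter widely.

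GBP4 was assigned to its protein-coding transcript GBP4-201 alone. GBP5 was divided mainly over GBP5-201, GBP5-202 and GBP5-204, of which the first pair is protein-coding and the last retains an intron. GBP5-203 had a value, 0.213 FPKM, in OV-BRCA1 sample 2 alone. In the OV-BRCA1 group the 3 main transcripts averaged 0.912 ± 0.105, 0.695 ± 0.0671 and 0.629 ± 0.126 FPKM, and in the NC group 0.0125 ± 0.0217, 0.0212 ± 0.0171 and 0.0385 ± 0.0337 FPKM (SD, n = 3). Each of the 3 entered the test through the OV-BRCA1 group.

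Likeness between the genes sets a limit on how reads can be assigned. The coding sequences of GBP1 and GBP3 were 91.7% identical, those of GBP1 and GBP2 82.5% and those of GBP2 and GBP3 82.9%. GBP5 was 75.1% to 77.9% identical to these 3 genes, and GBP4 was 68.1% to 68.8% identical to the other 4. Of all 50-base windows of the GBP1 transcripts, 9.62% also occurred in another gene, chiefly GBP1P1 and GBP3. The shares were 10.2% for GBP2, 4.76% for GBP3, 5.92% for GBP4 and 3.12% for GBP5. In windows of 100 bases the share fell to 1.09% for GBP1 and to 0 for GBP3, whereas it stayed at 8.42% for GBP2, all of it shared with the overlapping GBP7. At that length 47 of 6153 windows of GBP4 and 127 of 8482 windows of GBP5 were shared. GBP4 and GBP5 each overlap an antisense gene, that of GBP5 (AC099063.1) was listed at 0 in all 6 samples, and the use of strand is not given in the sources used here.

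The GBP genes lie on chromosome 1 between 89006666 and 89386461 (GRCh38). GBP6, the plus-strand member, was listed at 0 in all 6 samples, like GBP7. The pseudogene GBP1P1 stood at 2.57, 2.38 and 1.39 FPKM in the OV-BRCA1 samples and at 0.00971, 0.0917 and 0.335 FPKM in the NC samples, and passed the filter through the OV-BRCA1 group alone. Its log2 fold change was 1.43 (limma, Benjamini-Hochberg adjusted p = 0.00223), and fragments of GBP1 may be among those assigned to it.
Within 500 kb of the cluster 33 genes were listed, and 16 were tested. Of all 16321 genes tested, 16.4% passed the adjusted p upward, 2.89% were upregulated DEGs and 1.1% were downregulated DEGs. Of the 11 tested genes near the cluster that are not GBP genes, 4 passed the adjusted p upward. DEGs numbered 0 among these 11 genes, which cannot be told apart from such low shares in so short a list. Their median log2 fold change was 0.51, against -0.04 over all genes tested. LRRC8C, a subunit of volume-regulated anion channels, stood at 7.12, 7.38 and 7.21 FPKM in the OV-BRCA1 samples and 3.38, 3.41 and 3.73 FPKM in the NC samples. Its log2 fold change was 0.87 (limma, Benjamini-Hochberg adjusted p = 0.000363). LRRC8B (log2 fold change 0.74) and RBMXL1 (0.51) also rose. With a pseudocount of 0.1, LRRC8B (1.05) and LRRC8C (1.03) met the DEG criterion. The general transcription factor gene GTF2B (0.36) passed with all samples, but its adjusted p went up to 0.112 (limma, Benjamini-Hochberg) when single samples were left out. LRRC8D, at 26.9, 23.0 and 4.69 FPKM against 3.98, 3.65 and 5.74 FPKM, was split within the OV-BRCA1 group. It did not pass (log2 fold change 1.54, limma, Benjamini-Hochberg adjusted p = 0.0925), and without OV-BRCA1 replicate 3 it did (2.26, adjusted p = 0.00168). PKN2, on the other side of the cluster, had a log2 fold change of 0.05 (95% confidence interval -0.77 to 0.87).

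**Figure D4:**
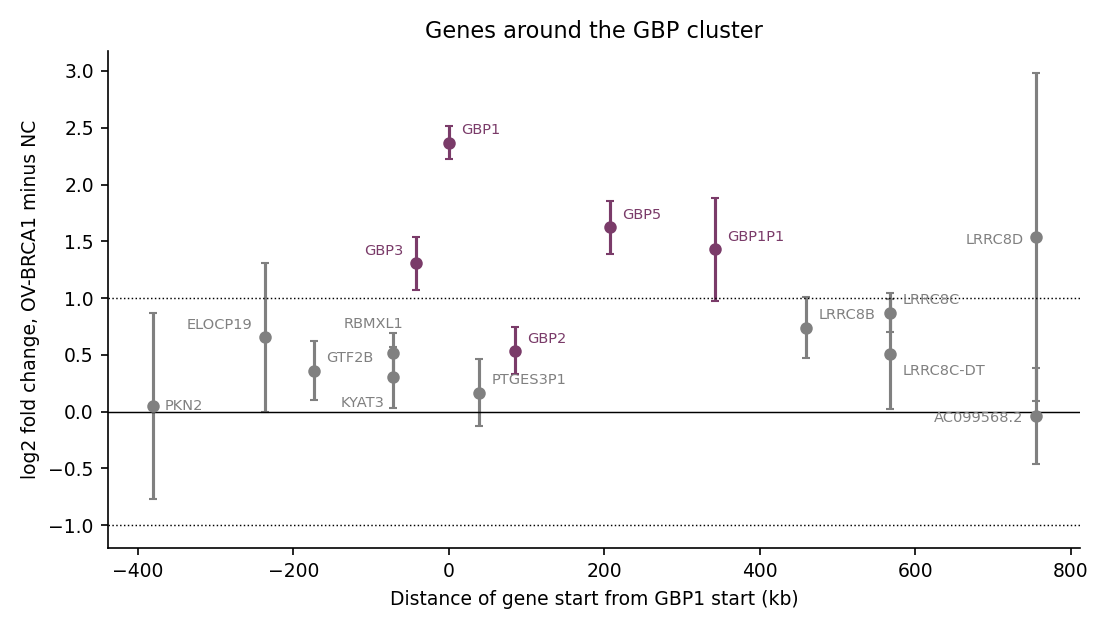
Log2 fold change with its 95% confidence interval for the 16 tested genes in and around the GBP cluster, by the distance of the gene start from that of GBP1 in kb. GBP genes and GBP1P1 are purple, other genes grey, dotted lines mark 1 and -1, and GBP1 (2.37), GBP5 (1.62), GBP1P1 (1.43) and GBP3 (1.31) lie above the upper dotted line, and so does LRRC8D (1.54), whose interval is wide.

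Receptors and factors that act upstream of GBP genes were read from a list of 28 genes, 23 of which were tested. Upward, 11 passed the adjusted p and 4 of these were DEGs, and downward 2 passed. Over all tested genes, 16.4% passed upward, 2.89% were upregulated DEGs and 18.9% passed downward. IFNL1, 1 of the 4 DEGs, passed the filter through the OV-BRCA1 group alone and so had to differ. The median log2 fold change was 0.33. The ligand gene IFNG was listed at 0 in all 6 samples. IFNB1, a type I ligand gene, stood at 0.686, 0.774 and 0.479 FPKM in the OV-BRCA1 samples and at 0.143, 0.0641 and 0 FPKM in the NC samples, without overlap, and was not tested. IFNL1, an interferon of the lambda type, stood at 3.76, 2.68 and 2.29 FPKM in the OV-BRCA1 samples and had no FPKM above 0 in the NC group.
BATF2, a transcription factor of the interferon-gamma response, rose from 0.751 ± 0.110 to 11.1 ± 0.737 FPKM (SD, n = 3), with a log2 fold change of 2.79. USP18, which restrains type I interferon signalling, rose by 2.38 on the log2 scale. The signalling factor gene STAT2 rose by 0.93 on the log2 scale. IRF9 (log2 fold change 0.72), SOCS1 (0.81) and IRF2 (0.47) rose by less, and the kinase gene JAK1 fell by 0.28 on the log2 scale (limma, Benjamini-Hochberg adjusted p = 0.00530).

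Targets typical of interferon-gamma were higher in most cases. Of 32 such genes 29 were tested, 26 passed the adjusted p upward and 0 downward, and 22 were upregulated DEGs. The shares over all tested genes were 16.4%, 18.9% and 2.89%. For these 29 interferon-gamma targets the values were as follows. Their median log2 fold change was 1.53, and 5 of them passed the filter through the OV-BRCA1 group alone. TAP1, a peptide transporter of antigen presentation, rose from 16.0 ± 0.572 to 76.4 ± 2.11 FPKM, and the adhesion molecule gene ICAM1 from 40.1 ± 1.11 to 114 ± 2.42 FPKM (SD, n = 3). The chemokine gene CXCL10, 1 of these 5, stood at 20.5, 21.2 and 24.5 FPKM in the OV-BRCA1 samples and 0.364, 0.218 and 0.359 FPKM in the NC samples. The log2 fold changes of UBE2L6 (2.02), PSMB9 (1.93), SECTM1 (1.91), APOL6 (1.83) and LAP3 (1.53) lay between those of GBP1 and GBP3. CXCL9, UBD and FCGR1A, which also define this list, were below 0.2 FPKM in all 6 samples and were not tested.
Targets typical of type I interferon were higher throughout in this fit. All 32 were tested and passed the adjusted p upward, 30 as DEGs, with a median log2 fold change of 2.39. Over all tested genes these shares were 16.4% and 2.89%. Of the 32 genes 1 passed the filter through the OV-BRCA1 group alone. LY6E was higher here (log2 fold change 0.59) without being a DEG, whereas the paper lists it among its downregulated genes. The IFIT genes, whose products bind foreign RNA, rose by 3.82 (IFIT1), 4.03 (IFIT2) and 4.08 (IFIT3), and the ubiquitin-like ISG15 by 2.39 on the log2 scale. OAS3, which makes the activator of RNase L, rose from 37.3 ± 0.237 to 153 ± 1.87 FPKM (SD, n = 3). RSAD2, an antiviral enzyme, rose by 4.36 and the RNA sensor gene DDX58 by 2.91 on the log2 scale. Both lists share genes with the other lists (3 genes each), and their difference was not tested.

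**Figure D5:**
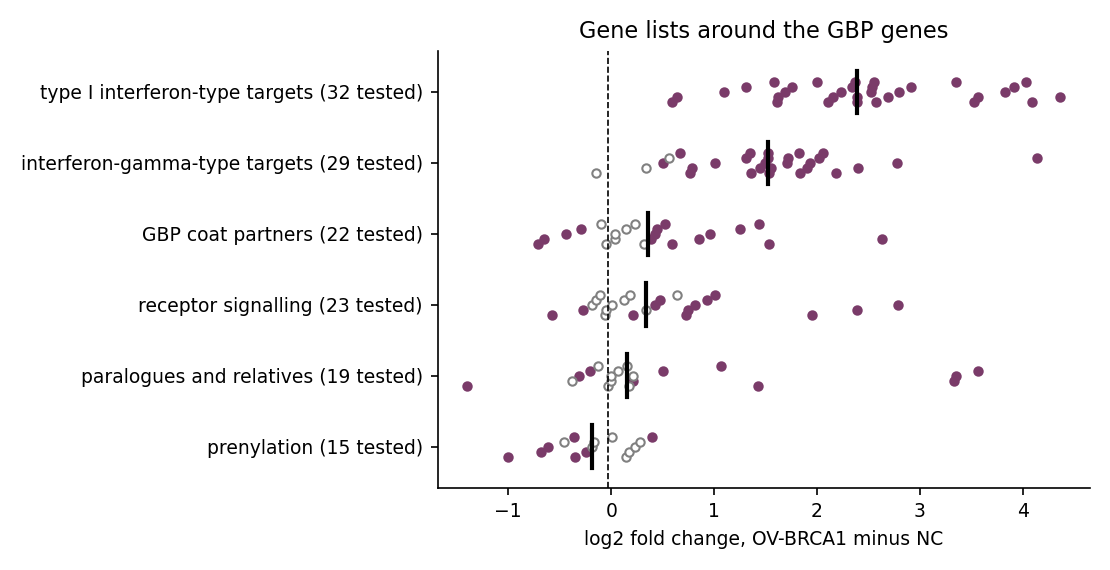
Log2 fold change of each tested gene in 6 lists, with genes that passed the adjusted p as filled points, others as open points, the median of a list as a thick black line and the median of all tested genes (-0.04) as a dashed line. The medians are 2.39 for type I interferon-type targets, 1.53 for interferon-gamma-type targets, 0.35 for coat partners, 0.33 for receptor signalling, 0.16 for paralogues and relatives and -0.19 for prenylation.

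Relatives of the GBP genes were a mixed group. Of 22 genes 19 were tested, with a median log2 fold change of 0.16. The adjusted p was passed upward by 7 and downward by 3, against 16.4% and 18.9% of all tested genes. The downward count is near that share. Of the 19 genes, 5 were upregulated DEGs and 1 was a downregulated DEG, against 2.89% and 1.1% of all tested genes. Of the upregulated ones, IRGM and GBP1P1 passed the filter through the OV-BRCA1 group alone and so had to differ. The interferon-induced dynamin-like GTPase genes MX1 and MX2 rose from 20.3 ± 0.0835 to 251 ± 4.30 FPKM and from 12.2 ± 2.84 to 132 ± 0.494 FPKM (SD, n = 3). IRGM, an immunity-related GTPase gene, stood at 12.2, 10.5 and 12.1 FPKM in the OV-BRCA1 samples and 0.220, 0.415 and 0.120 FPKM in the NC samples. EHD4, which shapes endosomal membranes, rose by 1.07 on the log2 scale. EHD1 rose by 0.51 and DNM2 fell by 0.32 on the log2 scale, and each lost its call in 4 of 6 fits that left out a sample. DNM1, the dynamin of synaptic membranes, went down from 21.7 ± 2.11 to 7.69 ± 1.85 FPKM (SD, n = 3), a log2 fold change of -1.40.

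Partners of GBP coats were read from a list of 25 genes. Of these, 22 were tested, with a median log2 fold change of 0.35. The adjusted p was passed upward by 11 and downward by 4, against 16.4% and 18.9% of all tested genes. The downward count is near that share. Upregulated DEGs numbered 4 and downregulated DEGs 0, against 2.89% and 1.1% of all tested genes. CASP4, whose product binds lipopolysaccharide on GBP coats, rose from 57.5 ± 0.973 to 105 ± 2.35 FPKM, and CASP1 from 24.6 ± 1.27 to 59.9 ± 0.706 FPKM (SD, n = 3). The DNA sensor gene AIM2 stood at 6.64, 5.48 and 6.59 FPKM in the OV-BRCA1 samples and at 0.275, 0 and 0.245 FPKM in the NC samples, and passed the filter through the OV-BRCA1 group alone. TRIM21, a cytosolic antibody receptor, rose by 1.43, RBCK1 by 0.59 and the autophagy receptor gene SQSTM1 by 0.38 on the log2 scale. IL1B, the cytokine processed by caspase-1, rose by 0.96 and reached the DEG criterion without NC replicate 3 (1.07) and with a pseudocount of 0.1 (1.60). PIM1, the kinase that phosphorylates GBP1, fell by 0.65 on the log2 scale (limma, Benjamini-Hochberg adjusted p = 0.00190). NLRP3 and CASP5 were below 0.2 FPKM in all 6 samples and were not tested.

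Genes of the supply and attachment of lipid anchors were read from a list of 15 genes. All were tested, 1 passed the adjusted p upward, 6 downward and 8 in neither direction, and the median log2 fold change was -0.19. Of all tested genes, 16.4% passed upward and 18.9% downward. MVD, an enzyme of the mevalonate pathway, went down from 125 ± 9.32 to 61.9 ± 2.05 FPKM, and FDPS, which makes farnesyl diphosphate, from 158 ± 4.89 to 97.8 ± 4.34 FPKM (SD, n = 3). MVD met the DEG criterion narrowly. It missed it without OV-BRCA1 replicate 1 (-0.98), without NC replicate 1 (-0.99), without NC replicate 3 (-0.96) and with median-of-ratios scaling (-0.97). IDI1 fell by 0.24 and PMVK by 0.61 on the log2 scale. ZMPSTE24, a protease that trims prenylated proteins, rose by 0.40. RCE1 and RABGGTA fell by 0.36 and 0.35 on the log2 scale, and lost their calls in 3 and 5 of 6 fits that left out a sample.

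For each member the 3 tested genes with the closest pattern over the 6 samples were found, by the Euclidean distance between log2(FPKM + 1) values centred on the mean of each gene. GBP1 was closest to TNFSF10 (distance 0.115), USP18 (0.140) and CMPK2 (0.175). TNFSF10, which encodes the death ligand TRAIL, stood at 31.0, 32.7 and 32.6 FPKM in the OV-BRCA1 samples and 5.92, 5.64 and 5.37 FPKM in the NC samples. GBP2 was closest to ATF5 (0.0579), GEMIN5 (0.0586) and AC006460.1 (0.0784). GBP3 was closest to CYP2J2 (0.151), HIST1H2BC (0.178) and PTX3 (0.183). For GBP4 the nearest genes were CTSC (0.0781), TCOF1 (0.0802) and CCDC138 (0.0892). For GBP5 they were HIST3H2A (0.140), MDK (0.143) and CDCP1 (0.162). The distance depends on the pseudocount, which compresses low values, so a near gene need not share the ratio of a member between the groups. This holds for GBP4 and GBP5, and also for CYP2J2 and AC006460.1, which reached 0.5 FPKM in the OV-BRCA1 group alone. The measure takes in the size of the group difference, and no member was among the 3 nearest genes of another member. Of the genes named here, many overlap another tested gene, so their values are less certain. On opposite strands, CMPK2 overlaps RSAD2, TAP1 overlaps PSMB9, and KRT8 overlaps KRT18. The genes IFIT1, IFIT2, IFIT3, ISG15, ICAM1, IRGM, DNM1, DNM2, SOCS1, JAK1, FDPS, IDI1, SQSTM1, CD68, BRCA1, LRRC8B, ATF5, AC006460.1 and PTX3 also overlap a gene on the opposite strand. STAT2, IRF9, PSMB9, RCE1, CD68, BRCA1, PKN2, RBMXL1 and CCDC138 overlap a gene on the same strand.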

How the data were processed

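The authors deposited FPKM values of 199167 transcripts in 6 samples. The submitters' processing notes name FastQC, HISAT2 and the genome build hg38. Strand use and the quantification tool are not given in the sources used here. Genes were named by GENCODE 29. The study describes the 3 samples per group as biological replicates, and p-values measure only the spread between these samples.

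FPKM were summed per gene, and groups were compared with limma 3.58.1 (R 4.3.3), with trend, on log2(FPKM + 1). Depth was estimated from the value of 1 fragment in 14216 genes with a single transcript, and is rough, as most low values were not near whole fragments. Scripts used Python 3.11.15 and Biopython 1.88, and the test was checked on simulated data.

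The members and lists were chosen with earlier results of these data known. Named genes were the members, BRCA1, genes within 500 kb (some tested ones only in the figure, most untested ones only counted), up to 8 genes per list with the smallest adjusted p below 0.05, some genes that define a list but were not tested, and the 3 nearest genes per member. A gene of the interferon pathway is not reported here. Alternatives were another pseudocount, no filter, a replicate block, leaving out samples, other scalings, robust estimation and the most abundant transcript.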

Additional observations from a re-analysis of the deposited data

How the results depend on the processing

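The log2 fold changes of GBP1 and GBP3 kept their direction in all settings run. Dropping the filter, robust estimation and the replicate block cannot move a log2 fold change here, and bear only on the adjusted p. GBP5 passed the filter through the OV-BRCA1 group alone, with a log2 fold change of 1.62. Without the filter the adjusted p of GBP5 was 0.000681 (limma with Benjamini-Hochberg adjustment). The log2 fold change of GBP2 turned to -0.21 (adjusted p = 0.564, limma with Benjamini-Hochberg adjustment) when the transcript most abundant over all 6 samples, GBP2-201, replaced the sum. In the other settings the adjusted p of GBP2 was 0.00378 to 0.0262. In the OV-BRCA1 group GBP2-203 was the more abundant, so the turn of GBP2 rests on the choice of transcript. With the most abundant transcript GBP3 had 1.22 (adjusted p = 0.141, against 0.000182 to 0.00424 otherwise) and GBP5 0.92 (adjusted p = 0.00592), both short of the DEG criterion. For GBP4, the pseudocount of 0.1 gave 1.92, and so did no filter together with a pseudocount of 0.1, chosen after seeing the data. In that last setting GBP4 met the DEG criterion (adjusted p = 0.00659, limma with Benjamini-Hochberg adjustment). The number of DEGs was 1280 with a pseudocount of 0.1, against 651. Leaving out 1 sample at a time gave 564 to 663 DEGs and log2 fold changes of 2.34 to 2.41 for GBP1, 0.48 to 0.59 for GBP2, 1.21 to 1.38 for GBP3, 0.48 to 0.57 for GBP4 and 1.58 to 1.64 for GBP5. Without an OV-BRCA1 sample GBP5 no longer passed the filter and has no value. GBP4 has no value with the block, robust estimation or its transcript. Replicate numbers did not pair the samples, since the deviations of samples with the same number correlated at -0.0244, 0.0250 and 0.0136. With the replicate block 646 genes were DEGs. Depth limits GBP4 and GBP5 most, whose NC values rest on few fragments.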
